A study of Rattus norvegicus with 12 samples.

Results

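The globins and erythroid genes of rat mesenteric lymph nodes were examined, 9 of the 14863 annotated genes and read by 11 of the 31099 probe sets on the array. They are the probe sets annotated to Hbb, Hbb-bs, Hbbl1, the alpha-globin gene Hba1, Alas2, Slc4a1 or Ahsp, and to other symbols starting with Hba or Hbb. Of the 8 listed symbols, Hbb-b1 had no probe set of its own in the annotation, and Hba1 is an older name of Hba-a1 and Hba-a2. Probe sets are named here by gene and by the suffix of the array: a set ending in _a_at reads several transcripts of a gene, and in one ending in _x_at some probes can also bind related sequences. The 7 globin probe sets are 4 for alpha-globins and 3 for beta-globins, and the other 4 are 1 for Alas2, 2 for Slc4a1 and 1 for Ahsp. They were chosen with their values on these arrays known, among them the difference of the Hbbl1/Hbb-bs_a_at probe set between groups, so their levels are given as a description with no test.

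Lymph nodes were taken from Wistar pups at day 21, and each group holds 3 arrays of 1 pup each, picked from 10 pups per group. All groups differ in their exposure to conjugated linoleic acid (CLA), a mix of 2 fatty acid isomers. Group A pups had dams on a diet with 1% CLA for 2 weeks of gestation and then through suckling, so that the pups took it up in milk. Group B pups had dams on the same diet in gestation only and were given CLA by gavage each day of suckling. Both groups thus had 5 weeks of exposure. Group C pups were gavaged in the same way for the 3 weeks of suckling, without any exposure in gestation. Group D pups, the reference, had dams on the standard purified diet and received none. Pups were suckled in litters of 10, but the sources used here do not tie litters to arrays. Pups of a group may thus share a dam, and p-values measure only the spread between these pups.

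Haemoglobin is a tetramer of alpha- and beta-globin chains, each holding a haem group, and its genes lie in an alpha cluster and a beta cluster. Globin mRNA persists in reticulocytes, which have lost their nucleus, after most other transcripts of the red cell precursor are gone. A lymph node is not a main site of red cell production, while the blood in its vessels carries red cells and reticulocytes. In whole tissue, more blood cells and more RNA per blood cell cannot be told apart.

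Levels are normalized log2 intensities, obtained by giving the deposited intensities of all 12 arrays 1 common distribution, and a difference of 1 is a doubling. As background served, in each array, the 95th percentile over the 27 probe sets whose spikes were absent from the sample. The deposited array medians ran from 27.6 to 32.9 in group A, 19.3 to 30.9 in B, 20.2 to 27 in C and 34.3 to 38.5 in D. Replicate 3 of group D stood apart from its group: over all probe sets its mean correlation was 0.896 with the other group D arrays, 0.931 with group B and 0.93 with group C. Results resting on group D are therefore also given without it. Each of the 8 T cell and 4 B cell markers measured was above background in every group, which goes with lymphoid tissue. It does not show whether a node carried other tissue, and gut epithelium markers are given below.

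The promoters of the globin genes are shown first, because the central pattern below lies within 1 pair of beta-globin genes that share both of their probe sets. Each sequence is the 130 bases before the annotated start of the gene in RefSeq on assembly GRCr8, which was used for sequences and names only. Capitals mark CCAAT (the CAAT box), CACCC (the site bound by Klf1 in beta-globin promoters) and ATAAA (the core of the globin TATA box), or their reverse complements. Hbb-b1 is included as the beta-globin gene lying between that pair.
Hbbl1, chr1:167650236-167650365, minus strand: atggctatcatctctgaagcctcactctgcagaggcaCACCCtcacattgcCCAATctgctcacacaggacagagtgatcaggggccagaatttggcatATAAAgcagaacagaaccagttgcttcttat
Hbb-bs, chr1:167631631-167631760, minus strand: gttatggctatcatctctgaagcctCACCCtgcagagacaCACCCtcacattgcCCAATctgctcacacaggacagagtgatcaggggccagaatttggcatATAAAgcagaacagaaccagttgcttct
Hbb-b1, chr1:167643521-167643650, minus strand: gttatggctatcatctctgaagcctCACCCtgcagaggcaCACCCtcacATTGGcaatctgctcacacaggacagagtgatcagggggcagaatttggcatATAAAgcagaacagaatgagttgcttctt
Hbb, chr1:167663722-167663851, minus strand: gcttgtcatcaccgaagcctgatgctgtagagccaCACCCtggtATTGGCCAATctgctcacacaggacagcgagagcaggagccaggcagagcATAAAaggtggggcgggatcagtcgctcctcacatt
The promoters of the 3 alpha-globin genes are shown for comparison, since their probe sets give the level of the partner chain.
Hba-a1, chr10:15842581-15842710, minus strand: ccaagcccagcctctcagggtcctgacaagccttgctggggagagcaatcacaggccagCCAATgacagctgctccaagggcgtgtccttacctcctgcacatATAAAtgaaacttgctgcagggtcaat
Hba-a2, chr10:15829139-15829268, minus strand: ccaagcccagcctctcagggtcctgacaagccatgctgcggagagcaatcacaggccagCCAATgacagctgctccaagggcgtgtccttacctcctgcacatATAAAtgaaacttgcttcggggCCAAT
Hba-a3, chr10:15816944-15817073, minus strand: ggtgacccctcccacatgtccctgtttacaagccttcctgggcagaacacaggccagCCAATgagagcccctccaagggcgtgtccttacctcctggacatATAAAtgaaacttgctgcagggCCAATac

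The promoters of Hbbl1 and Hbb-bs were identical at 98.4% of 127 aligned bases, while those of Hbb and Hbbl1 were identical at 71.7%. Between Hba-a1 and Hba-a2 96.2% of 130 bases were identical, against 86.2% of 123 bases between Hba-a1 and Hba-a3. All 7 windows held CCAAT and ATAAA, and the 4 beta-globin windows also held CACCC, which none of the 3 alpha-globin windows did. Counting both strands, CCAAT occurred in 21.3%, ATAAA in 22.9% and CACCC in 31.4% of the 33469 rat promoter windows of this length. GATA, the core of the site bound by Gata1, was also searched on both strands, and it occurred in the windows of Hbbl1, Hbb-bs and Hbb-b1, and in 33.6% of all windows. In the annotation the adult beta-globin genes lie next to each other on chromosome 1, in the order Hbb-bs, Hbb-b1, Hbbl1, Hbb-b2 and Hbb, and the embryonic Hbe2 and Hbe1 follow. The alpha-globin genes lie on chromosome 10.

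Both globin chains were among the bright signals of every array, and all 3 group A pups were at the upper end. The alpha-globin probe set Hba-a1/Hba-a2_at, which reads both genes together, stood at 12.40, 12.38 and 12.20 in group A. It stood at 11.76, 11.96 and 11.75 in group B, at 11.78, 11.87 and 11.62 in C, and at 11.68, 10.73 and 12.05 in D. Group A lay above every other array, while groups B, C and D overlapped. The means were 12.33 ± 0.11 (SD, n = 3) in group A, 11.82 ± 0.12 in B, 11.75 ± 0.13 in C and 11.49 ± 0.68 in D. The step from A to B exceeded the spread within both, and the steps from B to C and from C to D did not exceed the spread within group D.

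The other probe sets of the same 2 alpha-globin genes kept this order. The first of the pair of _x_at sets averaged 12.19 ± 0.10, 11.76 ± 0.08, 11.66 ± 0.25 and 11.46 ± 0.69 in groups A to D, and the second averaged 11.24 ± 0.18, 10.74 ± 0.12, 10.62 ± 0.30 and 10.58 ± 0.68. Because all 3 probe sets are annotated to both genes, they do not tell Hba-a1 from Hba-a2. The third alpha-globin gene, Hba-a3, had a level of 7.55 ± 0.19 in group A, 6.86 ± 0.29 in B, 6.81 ± 0.24 in C and 7.05 ± 0.66 in D. Here group D came second, though it overlapped with all the other groups.

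Hbb, a beta-globin of the adult, stood at 11.36, 11.80 and 11.39 in group A and at 10.98, 11.50 and 11.18 in group B. In group C it stood at 11.17, 11.27 and 10.97, and in group D at 11.05, 10.08 and 11.39. Its order of means was A, B, C and D. Group A lay above group C, and all other pairs of groups overlapped. Within an array, Hbb kept an even distance from alpha-globin: as deposited, its intensity was 0.56 to 0.71 times that of Hba-a1/Hba-a2_at in all 12 arrays. The Hbb signal came from an _x_at probe set, in which some probes can also bind related sequences. That signal moved with the alpha-globin signal from pup to pup.

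**Figure D1:**
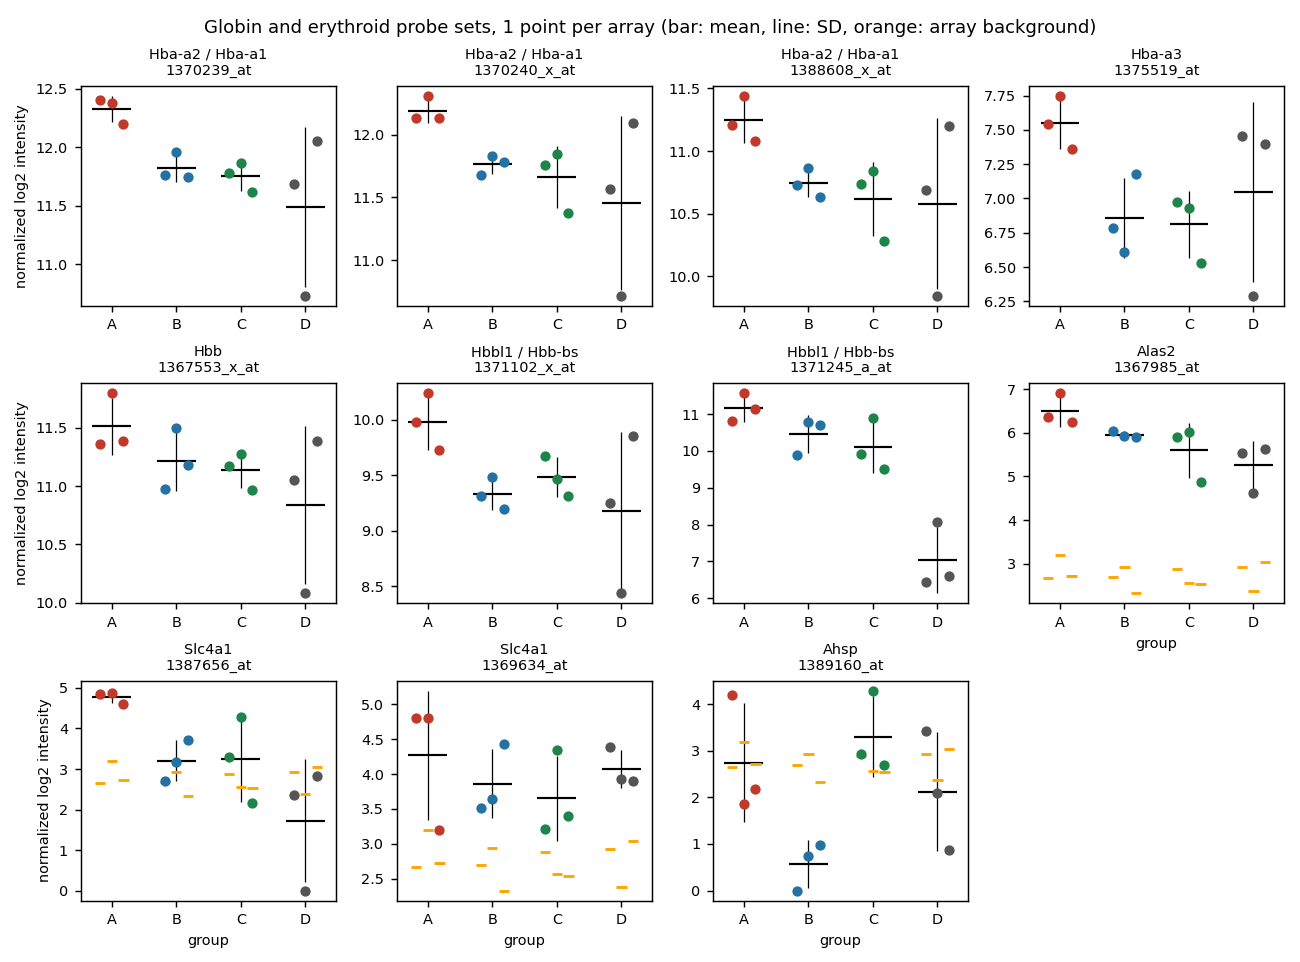
Normalized log2 intensity (vertical axis, scaled separately in each panel) of the 11 globin and erythroid probe sets in groups A, B, C and D. Each point is 1 array, the bar is the mean of 3 and the line its SD, and orange dashes give the background of the array where a probe set came near it. Panel titles give the symbols and the probe set. The _a_at panel of Hbbl1 / Hbb-bs shows the widest gap, with group D between 6.45 and 8.08 and the other 9 arrays at 9.50 or above.

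The largest difference of any globin was in Hbbl1/Hbb-bs_a_at, annotated to those 2 beta-globin genes. Its deposited intensities were 2385, 3450 and 3053 in group A, 891, 1610 and 966 in B, 768, 1505 and 519 in C, and 125, 338 and 110 in D. On the normalized log2 scale this was 10.80, 11.57 and 11.14 in group A, 9.88, 10.78 and 10.72 in B, 9.91, 10.88 and 9.50 in C, and 6.45, 8.08 and 6.60 in D. Every CLA array lay above every group D array. Among the CLA groups the lowest group A value was just above the highest of group B, and group C overlapped with both. The differences from group D were 4.13, 3.42 and 3.06, or 17.4-fold, 10.7-fold and 8.32-fold.

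The second probe set of the same 2 genes did not show this. Hbbl1/Hbb-bs_x_at stood at 9.98, 10.24 and 9.73 in group A, 9.31, 9.48 and 9.19 in B, 9.67, 9.47 and 9.32 in C, and 9.25, 8.44 and 9.86 in D. Its differences from group D were 0.80, 0.15 and 0.30, and group D overlapped with each CLA group. The deposited intensity of Hbbl1/Hbb-bs_a_at was 1.76 to 2.62 times that of Hbbl1/Hbb-bs_x_at in group A, 1.47 to 2.67 times in B and 1.13 to 2.72 times in C. In group D the ratio was 0.136, 0.773 and 0.113. A ratio within an array does not depend on a scaling factor of that array. Replicate 2 of group D was nearest to the CLA groups in this ratio, and was at the same time the array with the lowest level of all the other globins. Which probes differ between these probe sets was not part of the sources used here, so the measurements show unequal change and do not name the transcript.

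**Figure D2:**
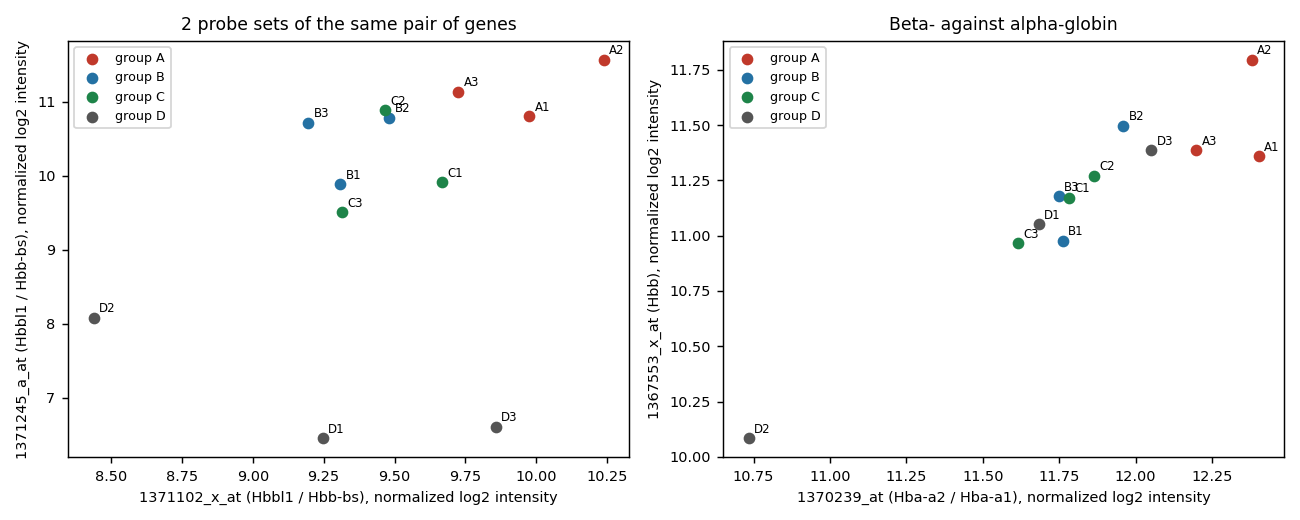
Normalized log2 intensity of 2 probe sets against each other, 1 point per array, labelled by group and replicate. On the left, the probe sets of Hbbl1 and Hbb-bs part company in group D, where the _a_at set is low at all levels of the _x_at set. On the right, Hbb, read by an _x_at set, follows the alpha-globin probe set in all 12 arrays. Replicate 2 of group D is lowest on both axes.

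Counted over the 7 globin probe sets, all were higher in group A than in group D, by 0.50 to 4.13 and with a median of 0.73. In 3 of them, Hba-a1/Hba-a2_at, the first Hba-a1/Hba-a2_x_at and Hbbl1/Hbb-bs_a_at, group A lay above all of group D, where 19.2% of all 31042 probe sets did so. In group B 6 were higher and 1 was lower, with a median of 0.31, and in group C likewise, with a median of 0.27. Only Hbbl1/Hbb-bs_a_at lay above all of group D in these groups, against 6.7% and 6.82% of all probe sets. Since the probe sets were chosen from these contrasts, nothing is read from these shares. The 3 differences share the group D arrays.

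Replicate 2 of group D set the size of these medians. It was the lowest of the 12 arrays in all 6 globin probe sets other than Hbbl1/Hbb-bs_a_at. Without it the medians were 0.36 in group A, -0.07 in B and -0.11 in C. Without replicate 3 they were 1.05, 0.61 and 0.55. Group A therefore stayed above group D either way, whereas the sign in groups B and C rested on 1 pup. That of Hbbl1/Hbb-bs_a_at did not, as its closest group D value was 8.08 and the lowest CLA value was 9.50.

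Groups A and B had the same length of exposure and differed in the route of CLA during suckling. Against groups B and C together, group A was higher in 7 of 7 globin probe sets, by 0.34 to 0.89 and with a median of 0.56. In 5 of the 7, all but Hbb and Hbbl1/Hbb-bs_a_at, every group A array was above every array of both gavaged groups, where 22% of all probe sets were. Nothing is read from this share either, as the probe sets were chosen with their values known and several read the same genes. Groups B and C, which differed in gestation, were close to each other. Group B was higher in 6 of 7, with a median difference of 0.08. Leaving out any 1 array of groups A, B or C kept the median of A against B and C between 0.46 and 0.65.

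The scaling between arrays mattered for the gavaged groups. As deposited, the median globin difference was 0.57 in group A, -0.49 in B and -0.56 in C, and 6 of 7 globins were lower than in D in both gavaged groups, all but Hbbl1/Hbb-bs_a_at. The median of all probe sets was then itself shifted by -0.12, -0.55 and -0.70. With each array centred on its 75th percentile the globin medians were 0.75, 0.03 and 0.11. The rank of group A above the others held under all 3 scalings, and Hbbl1/Hbb-bs_a_at was higher than in group D by 2.34 to 4.32 in each CLA group under each of them. No direction is given for the other globins in groups B and C.

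**Figure D3:**
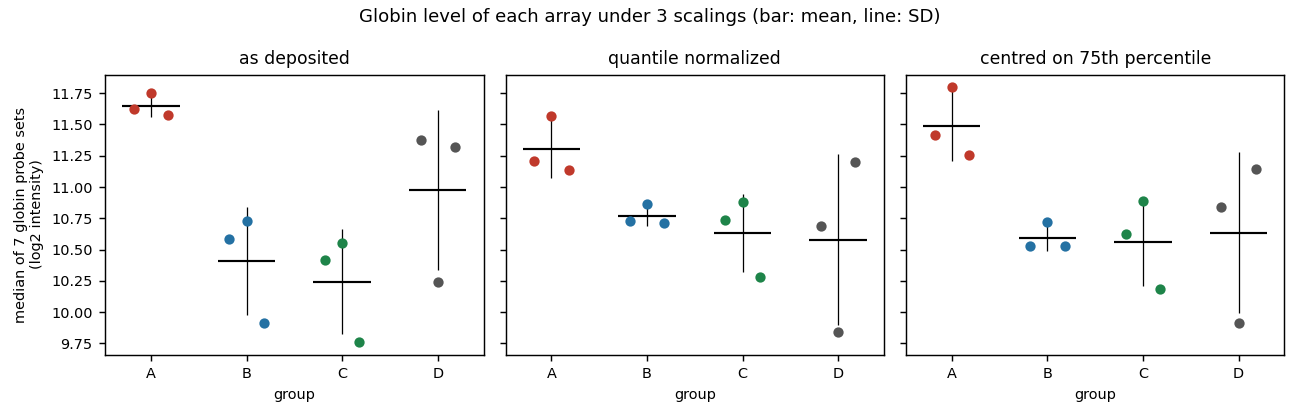
Median log2 intensity of the 7 globin probe sets in each array (points), with the mean (bar) and SD (line) of each group of 3, under 3 scalings between arrays. Group A is highest in each panel, while groups B and C lie below the group D mean as deposited and near it after either scaling.

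Alas2, the erythroid enzyme that starts haem synthesis, was higher in group A. It stood at 6.36, 6.91 and 6.24 in group A, 6.05, 5.92 and 5.91 in B, 5.90, 6.02 and 4.87 in C, and 5.54, 4.61 and 5.62 in D. Groups A and B each lay above all of group D, by 1.24 and 0.70, and group C overlapped with it at a difference of 0.34. As deposited, the difference was 1.03 in group A, 0.22 in B and -0.31 in C. All 12 values were above background, and the lowest of the 12 was again replicate 2 of group D.

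Slc4a1, the anion exchanger band 3 of the red cell membrane, was dim and its 2 probe sets disagreed. The first stood at 4.86, 4.88 and 4.60 in group A, 2.71, 3.17 and 3.72 in B, 3.28, 4.28 and 2.17 in C, and 2.36, 0.00 and 2.82 in D. No group D value was above background, so only a bound can be given: group A was at least 3.99-fold higher, with measured means of 4.78 and 1.73. In groups B and C, with 3 and 2 arrays above background, the bounds were 1.34-fold and 1.38-fold, and the measured values of both overlapped with those of group D. The bounds set the mean of the brighter group against the mean background of the group D arrays.

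The second probe set of Slc4a1 was above background in all 12 arrays and gave means of 4.27 ± 0.93, 3.86 ± 0.49, 3.65 ± 0.61 and 4.07 ± 0.27 in groups A to D. All groups overlapped there. Ahsp, the chaperone of free alpha-globin, stood at 4.21, 1.85 and 2.17 in group A, 0.00, 0.74 and 0.99 in B, 2.93, 4.30 and 2.69 in C, and 3.42, 2.09 and 0.87 in D. It was above background in 1, 0, 3 and 1 arrays of these groups, so its order is not read.

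Across the 12 arrays the 6 globin probe sets other than Hbbl1/Hbb-bs_a_at moved together, with pairwise Pearson correlations of 0.70 to 0.98 and of 0.75 to 0.98 once group means were removed. Alas2 correlated with these 6 at 0.73 to 0.89 (0.72 to 0.86 with group means removed), and the first Slc4a1 probe set at 0.72 to 0.92 (0.74 to 0.91). That Slc4a1 set was above background in only 2 arrays of group C and 0 of group D. The second Slc4a1 probe set, above background in all 12 arrays, correlated at only 0.23 to 0.54 (0.13 to 0.42). Correlations of Hbbl1/Hbb-bs_a_at with the same 6 were 0.08 to 0.46, and -0.50 to -0.27 with group means removed. Ahsp was at -0.02 to 0.20, near its background. The points of these correlations share their arrays and scaling, and they are given as descriptions over 12 arrays.

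Among 17446 probe sets with 1 symbol and above background in at least 6 arrays, 10 were most like the globins by their correlation with the mean centred level of the 7 globin probe sets over 12 arrays. These were Tmem80 (r = 0.97), Alox15 (0.94), Oplah (0.93), Clk3 (0.93), Pxdc1 (0.92), Fbrsl1 (0.90), Islr2 (0.89), Angptl4 (0.89), Klrg1 (0.89) and Pfkfb4 (0.89). The mean includes Hbbl1/Hbb-bs_a_at, whose gap from group D was the largest of the 7. In replicate 3 of group D the mean was -0.18, although its median globin level, 11.20, was above every array of groups B and C. Which genes were most like the other globin probe sets alone was not computed. With group means removed the highest of the 10 was Alox15, at 0.96. Alox15, the lipoxygenase that attacks mitochondrial membranes in maturing reticulocytes and is also made by eosinophils and macrophages, averaged 7.84 in group A, 6.91 in B, 5.76 in C and 5.13 in D. The mean of Alas2, Slc4a1 and Ahsp was followed most closely by Sil1 (0.89), Rap1gap2 (0.88) and Jsrp1 (0.88), but that mean rests in part on values within background.

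The wider erythroid programme was followed in 7 lists of 100 genes, of which 85 were measured, each on its brightest probe set and tested with limma over all probe sets. Against group D, 14 list genes rose and 8 fell in group A (25.9% of the 85), close to the 28% of all genes that passed, 16% higher and 12% lower. The list median was 0.25 and that of all genes 0.15. As deposited, this balance turned to 2 higher, Ldb1 and Alox15, and 5 lower, Urod, Car1, Tfrc, Ireb2 and Ncoa4 (11.5% of all genes, 1.84% higher and 9.64% lower). In groups B and C 0 of 85 passed, where 0.0211% and 0.0422% of all genes did. Unadjusted p-values under 0.05 were reached there by 8 higher and 10 lower genes in group B and by 4 and 14 in group C, or 18 of 85 in each, where 17% and 19.6% of all genes did. Without replicate 3 of group D, 7 rose and 15 fell in group B and 3 rose and 16 fell in group C, while group A had 13 and 8. Of all genes, 20% passed in group B, 23% in C and 28% in A without that array.

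Against groups B and C, 31 list genes were higher and 9 lower in group A (47.1% against 48.4% of all genes, 31.6% higher and 16.9% lower), with a list median of 0.49 against 0.32 for all genes. As deposited, 40 were higher and 2 lower (47.7% of all genes, 40.6% higher and 7.05% lower). Between groups B and C 0 passed, as did 0% of all genes by limma. There 3 list genes had an unadjusted p under 0.05, as had 279 higher and 275 lower of all 14217 genes. The shares of erythroid genes that passed thus lay near the background in each comparison, and the lists held genes moving both ways.

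**Figure D4:**
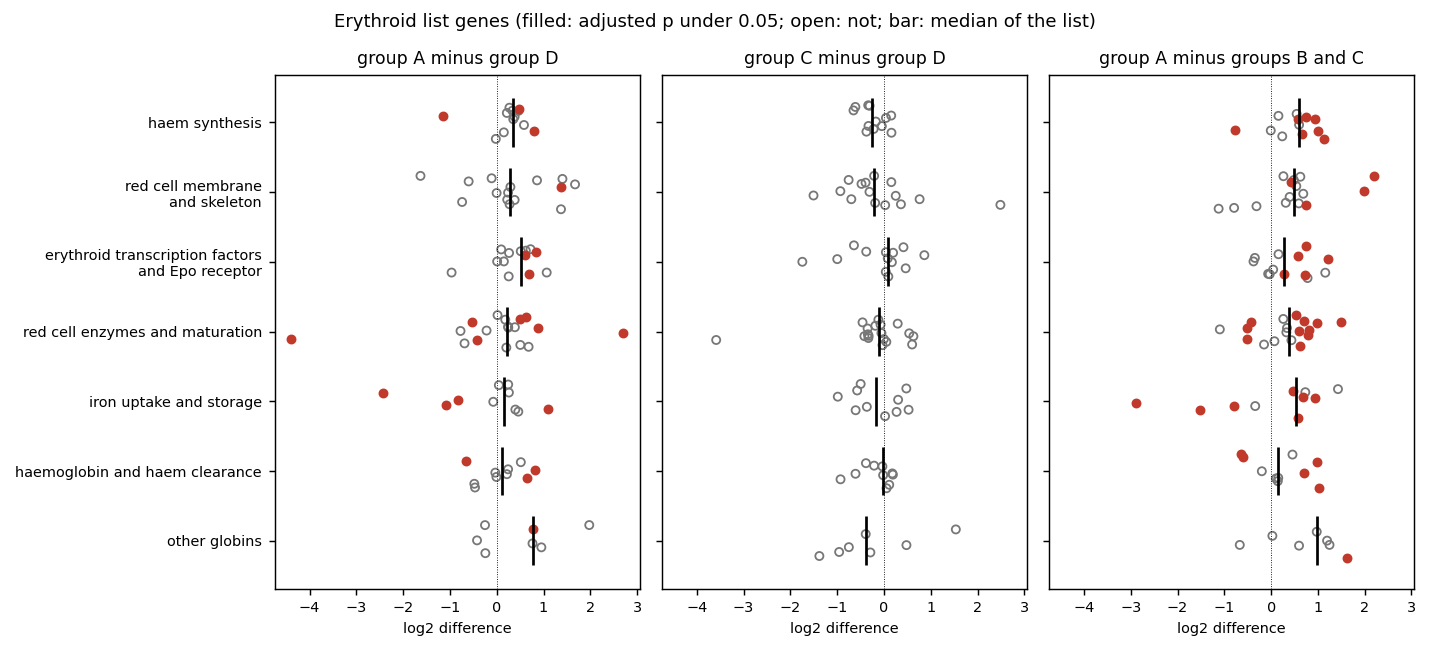
Log2 difference (horizontal axis) of the 85 measured genes of 7 erythroid lists (rows) in 3 comparisons. Filled points had an adjusted p under 0.05 in limma, open points did not, and the bar is the median of the list. Genes of the iron list passed in both directions in group A, and no gene passed in group C against group D.

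The haem synthesis list moved both ways in group A. Slc25a39, the mitochondrial glutathione importer needed for haem formation, averaged 9.64 ± 0.05 (SD, n = 3) in group A, 8.49 in B, 8.51 in C and 8.84 ± 0.15 in D. Against group D it rose by 0.80 (SE 0.12, adjusted p = 0.000482), and its dimmer second probe set, with a difference of 0.32, did not pass. Fech, which inserts iron into the ring, rose by 0.47 (SE 0.14, adjusted p = 0.0340) in group A, a call lost when replicate 1 or 2 of either group was left out. Urod, an enzyme of the middle of the pathway, fell by 1.15 on the log2 scale (SE 0.22, adjusted p = 0.00318). In total 2 of the 12 measured genes rose and 1 fell in group A against group D (16% and 12% of all genes).

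Against groups B and C, 6 of these 12 were higher and 1 lower in group A (31.6% and 16.9% of all genes). The housekeeping isozyme Alas1 was higher by 0.93 (adjusted p = 0.00123), Alad, the second enzyme of the pathway, by 0.99 (0.000204), and Tmem14c, which passes a haem precursor into mitochondria, by 0.66 (0.000382). Slc25a39 was higher by 1.14 (4.65e-06) and Fech by 0.74 (0.000469), while the difference of Urod was -0.76 (0.00726). That of Urod was lost without replicate 3 of group A, and was -0.28 (0.446) as deposited. Cpox, among the brightest of the list, had a difference of 0.24 and did not pass. Alad stood at 7.61, 7.60 and 7.45 in group A, 6.43 to 6.66 in B, 6.41 to 6.73 in C, and 7.23, 7.52 and 6.85 in D. Groups A and D were both above the gavaged groups, and replicate 3 of group D was the nearest to those. The differences of Alad in groups B and C from group D did not pass in limma (adjusted p = 0.1961 and 0.1545).

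The iron list held 3 genes that fell in group A against group D, where 12% of all genes did. All arrays of group A lay below those of every other group in each. How many of all genes did so was not computed. The 3 were picked because they passed, so nothing is read from this separation. Ireb2, an RNA-binding sensor that stabilises transferrin receptor mRNA when iron is scarce, stood at 3.47, 3.48 and 4.60 in group A against 5.94, 6.17 and 6.74 in group D. It fell by 2.43 on the log2 scale (SE 0.30, adjusted p = 0.000139), and against groups B and C it fell by 2.89 (4.83e-06). Tfrc, the transferrin receptor, stood at 7.21, 7.44 and 7.55 in group A and at 8.30, 8.19 and 8.96 in group D. It fell by 1.08 on the log2 scale (SE 0.18, adjusted p = 0.00115), and its second probe set fell by 2.22 (7.51e-05). Ncoa4, which brings ferritin to the lysosome, fell by 0.83 on the log2 scale (SE 0.11, adjusted p = 0.000338). Against groups B and C its difference was -0.80 (5.97e-05), but -0.21 (0.444) as deposited.

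In the opposite direction, Slc25a37, the mitochondrial iron importer mitoferrin, stood at 6.31, 6.85 and 6.42 in group A and at 5.17, 5.24 and 5.86 in group D. It rose by 1.10 (SE 0.22, adjusted p = 0.00421). Of the 10 iron genes measured, 1 rose and 3 fell in group A against group D (16% and 12% of all genes). Against groups B and C, 4 were higher and 3 lower (31.6% and 16.9% of all genes). The latter include the ferrireductase Steap3, higher by 0.93 (0.00849), and the iron sensor Aco1, higher by 0.58 (0.00186), neither of which passed against group D.

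**Figure D5:**
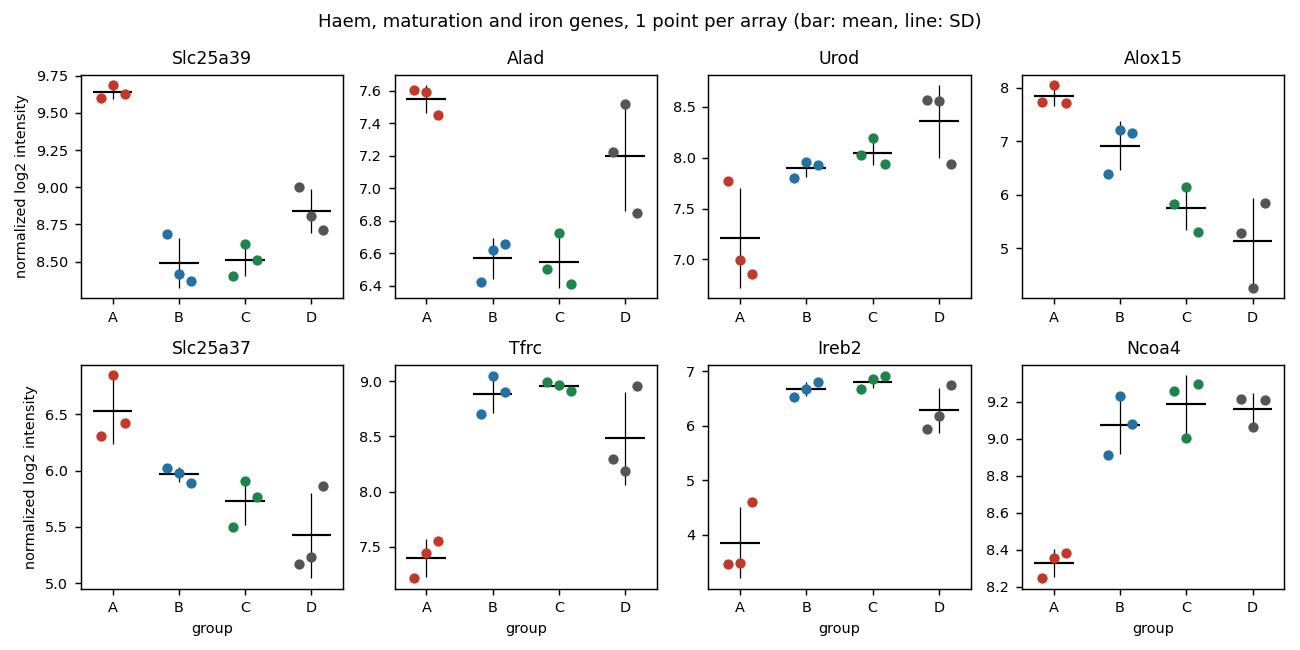
Normalized log2 intensity (vertical axis, scaled per panel) of 8 genes of haem synthesis, red cell maturation and iron handling, 1 point per array with the mean (bar) and SD (line) of each group. Tfrc, Ireb2 and Ncoa4 lie lowest in group A, and Slc25a39, Alox15 and Slc25a37 lie highest there.

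Of 18 genes for red cell enzymes and maturation, 4 rose and 3 fell in group A (16% and 12% of all genes). Alox15 had the largest rise, 2.71 (SE 0.36, adjusted p = 0.000266), from 5.29, 4.25 and 5.85 in group D to 7.74, 8.06 and 7.72. Ube2o, the ubiquitin ligase that clears proteins from reticulocytes, rose by 0.89 (0.00117), and Blvrb, the flavin reductase abundant in red cells, by 0.63 (0.0271, lost without replicate 2 or 3 of group A or replicate 3 of group D). Fbxo7 rose by 0.51 (0.0258), while the catalase gene Cat fell by 0.53 on the log2 scale (0.00884) and the nuclear exporter Xpo7 by 0.43 (0.0141). Prdx2, the abundant red cell peroxiredoxin, and Hk1, a hexokinase, were higher by 0.69 (0.000659) and 0.79 (0.00267) against groups B and C, and did not pass against group D. Bnip3l, which marks mitochondria of reticulocytes for removal, differed by -0.51 from groups B and C (0.00343), and by 0.18 as deposited. Gpx1, a bright member of the list, did not pass in either.

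Car1, a carbonic anhydrase of red cells that colon epithelium also makes, fell by 4.39 on the log2 scale in group A (SE 1.05, adjusted p = 0.0103). Its level was 3.39, 1.72 and 2.49 in group A (above background in 1 of 3 arrays) and 3.91, 8.05 and 8.81 in group D, where replicates 2 and 3 stood far above all other arrays. The summed intensity of 6 gut epithelium markers was 119 to 341 in group D, 68.5 to 121 in A, 47.3 to 68.7 in B and 59.8 to 80.7 in C. Of the 6, 2 were lower in A than in D by the test (12% of all genes). Fabp2 was within background in all arrays of groups A, B and C, Vil1 in those of groups B and C, and Epcam in those of group B. The part of gut epithelium in the Car1 difference was not tested.

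Of 13 genes for erythroid transcription factors and the erythropoietin receptor, 3 rose in group A and 0 fell (16% and 12% of all genes). Tal1 rose by 0.70 (SE 0.17, adjusted p = 0.0124), Lmo2 by 0.59 (0.00230) and Ldb1 by 0.83 (0.00188), which together form a DNA-binding complex of blood cell precursors that is also used in endothelium and other lineages. Gata1 and Klf1, the main regulators of red cell precursors, had levels near background and differences of 0.01 and 0.15 that did not pass. Against groups B and C, Epor was higher by 0.71 (0.0336) and Zfpm1 by 1.21 (0.0321), calls lost when 1 array was left out in 7 and 5 of 12 cases. Klf3, bright in all groups, did not pass on its brightest probe set, but the dimmest of its 3 probe sets rose by 0.55 in group A (0.0224) and was higher by 0.50 (0.00949) against groups B and C.

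Of 15 genes for the red cell membrane and its skeleton, 1 rose in group A (16% of all genes). Rhd, the Rh blood group antigen, stood at 4.50, 4.46 and 4.53 in group A against 2.52, 3.11 and 3.74 in group D, a rise of 1.38 (SE 0.38, adjusted p = 0.0216), with 2 of 3 group D arrays above background, that was lost in 4 of 12 fits leaving out 1 array. Against groups B and C, the water channel Aqp1 was higher by 0.74 (0.00115) and the glycophorin Gypc by 0.42 (0.0120), both also made outside red cells. The skeleton genes Epb42 and Add2 also passed there, but Add2 was within background in all 12 arrays and Epb42 in all arrays of groups B and C, so no fold is given. Epb41, the skeleton protein 4.1, was bright and did not pass on that probe set, while its dimmer one differed by -1.37 (0.0381) from groups B and C. The second probe set of Aqp1, with a difference of 0.29, did not pass.

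Of 10 genes for the clearance of haemoglobin and haem, 2 rose and 1 fell in group A (16% and 12% of all genes). Hmox1, the haem oxygenase of macrophages, rose by 0.81 (SE 0.23, adjusted p = 0.0233), from 8.77, 8.52 and 7.59 in group D to 9.12, 9.19 and 9.01, and by 0.46 (adjusted p = 0.0146) without replicate 3 of group D. The call was lost without replicate 1 or 2 of group A, with an adjusted p of up to 0.0801. The haem transporter Slc48a1 rose by 0.65 (0.0380), a call lost in 6 of 12 such fits. Blvra, which makes bilirubin, fell by 0.65 on the log2 scale (0.0485), a call lost in 11 of 12. Lrp1, the receptor for haem bound to haemopexin, differed by 0.98 from groups B and C (0.000631), and Spic, a factor of iron-recycling macrophages, by -0.64 (0.00746). As deposited, the difference of Spic was -0.26 (0.389).

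The other globins gave 1 pass among 7 measured (of all genes, 28% passed in group A against group D and 48.4% against groups B and C). Cytoglobin (Cygb), a globin of fibroblasts, rose by 0.78 (SE 0.25, adjusted p = 0.0409) in group A against group D, lost in 11 of 12 such fits, and was higher by 1.63 (8.97e-05) against groups B and C. The embryonic globins Hbe1, Hbz and Hbg1 and the myoglobin Mb had mean levels of 1.10, 0.09, 0.54 and 1.43 over the 12 arrays, at or near background, and none passed. Hbe2 and neuroglobin (Ngb), with means of 2.19 and 2.50, did not pass either. The bright globin signal thus lay in the adult alpha- and beta-globins.

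Markers of other cells also differed between the groups. The counts below are for group A against group D, where 16% of all genes rose and 12% fell. The summed intensity of 9 neutrophil markers was 503 to 704 in group A, 201 to 234 in B, 223 to 370 in C and 195 to 283 in D, and 4 of the 9 rose. Among them Camp was within background in all arrays of groups A, C and D, and Np4 in those of group D. For 9 platelet and megakaryocyte markers it was 384 to 509, 248 to 289, 250 to 326 and 260 to 354, and 2 rose, while Gp5 was within background throughout. For 6 macrophage markers it was 4102 to 4526, 2546 to 3074, 2136 to 2705 and 2007 to 4380, and 3 rose. For 4 B cell markers it was 1642 to 1909, 3102 to 3572, 3169 to 3492 and 1847 to 2854. Of these, Ms4a1 (CD20) fell by 0.34 on the log2 scale (adjusted p = 0.0405), and against groups B and C it fell by 0.83 (2.87e-05) and the complement receptor Cr2 by 2.13 (0.000132). Among 8 T cell and 5 endothelial markers, 0 rose and 1 fell in each list. The hexokinase 3'/5' ratio, a sign of RNA quality, was 2.84 to 4.96 in group A, 1.62 to 3.24 in B, 1.82 to 2.62 in C and 1.85 to 2.53 in D. The same ratio of GAPDH was 1.21 to 1.53 in group A and 1.06 to 1.22 in D, and that of beta-actin, at 1.37 to 1.79 in group A, lay within the 1.30 to 1.91 of group D. Their part in the globin and erythroid differences was not tested.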

How the data were processed

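Mesenteric lymph node RNA of 12 pups was hybridised to Affymetrix GeneChip rat genome arrays, 1 per pup. The deposited table holds MAS5 output of the authors, 1 linear signal intensity per probe set and array, without scaling between arrays. No column lacked a sample. Each zero took the smallest positive value, log2 values were quantile normalized, and values under an intensity of 1 were raised to 1. Tests covered 31042 probe sets, without the 57 controls. Symbols followed the platform annotation, updated to GRCr8, and the brightest probe set stood for each of 14217 genes.

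Groups were compared with limma 3.58.1 (R 4.3.3), using a mean for each group, a variance trend, two-sided tests and Benjamini-Hochberg adjustment over all probe sets at 0.05. The procedure was tested on simulated data. The members, lists, scaling and tests were chosen with earlier results of these data known. Named genes were every globin and erythroid probe set, up to 6 passing genes with the largest differences and the 3 brightest genes of each list, and the 10 genes most like each mean. Cat, Fbxo7, Xpo7, Gata1, Klf1, Hbe1, Hbz, Hbg1, Mb and single cell type markers were named after their values were seen. Alternatives were 2 other scalings, a floor of 32, a filter on the dimmest 40%, no variance trend, only the groups compared, unadjusted p, a replicate block, any probe set, a 2-fold minimum and leaving out each array. Replicate numbers did not pair the samples: deviations of same-numbered arrays correlated at -0.02 to 0.08. The number of arrays limits the precision, and an exact permutation test of 3 arrays against 3 cannot go below p = 0.1.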

Additional observations from a re-analysis of the deposited data

Results flagged for a closer look

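Fech, Slc25a39 and Tmem14c of haem synthesis stood out because group A and the gavaged groups lay on opposite sides of group D. Every group A array was above every group D array, and every array of groups B and C was below. The same order of groups was found in 182 of all 14217 genes (1.28%), and the 3 genes are 3.53% of the 85. In limma no difference of group B or C from group D passed for these genes (adjusted p of 0.192 to 0.559), and that of group A did not pass for Tmem14c (0.0743). The difference of group A from groups B and C was 0.74 for Fech, 1.14 for Slc25a39 and 0.66 for Tmem14c on the log2 scale. Its direction was fixed by the choice of these genes, and it was not tested apart from that choice.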

How the results depend on the processing

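As deposited, the erythroid list genes that passed numbered 7 in group A against group D, 2 higher and 5 lower (22 after normalization, 14 and 8), 40 higher and 2 lower against groups B and C (31 and 9 after normalization), 1 in B and 31 in C (all lower), and the globin medians were -0.49 in B, -0.56 in C and 1.18 where group A was set against both gavaged groups. Bnip3l in that last comparison turned from a difference of -0.51 to 0.18. As deposited, the median of all probe sets was itself shifted by -0.55 in B and -0.70 in C. Shares of all genes were not computed for the deposited counts of B and C, so these counts are not read. A fit of only the groups compared left 11 in group A against group D. A minimum of 2-fold left 7 there and 9 of 40 against B and C together. Shares of all genes were not computed for these settings. With unadjusted p under 0.05, 18 passed in group B, 18 in group C and 3 between groups B and C, and without moderation 17, 16 and 4. Of all 14217 genes, 17% had an unadjusted p under 0.05 in group B and 19.6% in C, and 279 higher and 275 lower between B and C. Shares without moderation were not computed. Leaving out 1 array gave 14 to 21 in group A against group D (14 without replicate 2 of group A), 0 to 22 in B, 0 to 19 in C and 34 to 45 for A against B and C together. The highest counts in groups B and C came without replicate 3 of group D, and without replicate 1 of group D each had 1. The globin medians then ranged from 0.36 to 1.05 in group A, -0.07 to 0.61 in B, -0.11 to 0.55 in C and 0.46 to 0.65 for A against B and C together. With the replicate number as a block, 24 and 41 passed in group A against group D and against groups B and C, and 0 in the other comparisons, as without it. Shares of all genes were not computed for the block. Among the fits leaving out 1 array, they were computed only for the comparisons with group D without its replicate 3. The other counts are therefore not read as a result about the erythroid genes. The cause of these changes was not tested. The other settings left each of these counts within 1.5 times and each globin median within the spread between replicates. Slc4a1 and Ahsp lay near background, which limits their precision.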
